A study of Mus musculus with 3 samples.

Results

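Astrocytes keep the fluid around synapses in balance, and 9 of the genes with which they do so were followed in brain cells after a transient ischemic attack (TIA). They were Slc1a2, Slc1a3 and Glul for glutamate, Slc6a11 for GABA, Kcnj10 and Atp1b2 for potassium, Gja1 and Gjb6 for gap junctions, and Aqp4 for water, out of 32285 genes in the files. The genes were taken by symbol, and their unique molecular identifiers (UMIs) were summed over the astrocytes of each library and scaled to 1000000 UMIs of the same sum (CPM). As background, astrocytes remove glutamate and GABA from the synaptic cleft with sodium-driven transporters and turn glutamate into glutamine, which returns to neurons. They also take up the potassium that active neurons release, pass it on to neighbouring astrocytes through gap junctions, and move water at endfeet that wrap around blood vessels. Only RNA was counted in these data, so the levels below do not show how well astrocytes performed these tasks.

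The study sorted live cells from the brain of WT mice of the strain C57BL6J, given in the methods as 10 to 12 weeks old, with males named in the figure legend of these data. Naive mice served as control, and the ipsilateral hemisphere was taken 24 h or 3 d after TIA, an occlusion of the middle cerebral artery for 5 min with a filament. Before the 10x Genomics 3′ assay, 3 mice were pooled per condition, which gave 1 library each. There were no replicates, differences between conditions and between libraries cannot be told apart, all intervals are 95% intervals that cover counting error only, and the 24 h and 3 d comparisons share their control library.

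The control library held 4018 cells after filtering with a median of 7750 UMIs, the 24 h library 1225 cells with a median of 8123 UMIs and the 3 d library 4781 cells with a median of 7868 UMIs. Libraries shared few cell barcodes, with 3 between control and 24 h, 8 between control and 3 d and 4 between 24 h and 3 d. Astrocyte-like cells made up 894 cells or 22.2% of the control library (exact binomial interval 21.0% to 23.6%), 237 cells or 19.3% at 24 h (17.2% to 21.7%) and 1429 cells or 29.9% at 3 d (28.6% to 31.2%). The astrocyte sums held 8898760, 2840856 and 14160128 UMIs in the same order, so the 24 h sum was the shallowest, while its cells were the deepest with a median of 11501 UMIs per astrocyte against 9334 in control and 9307 at 3 d. The astrocyte clusters were named with 12 markers that leave out the 9 genes described here, so finding these markers in them is no check of the name. All 12 were detected in each library, summed to 7718 CPM in control, 9449 CPM at 24 h and 8466 CPM at 3 d, and were led by the glycolytic enzyme gene Aldoc.

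The astrocytes fell into 3 clusters, numbered 2, 4 and 10. Cluster 2 held 52.3% of the astrocytes in control, 41.8% at 24 h and 44.4% at 3 d, and cluster 4 held 36.1%, 48.9% and 45.5%, so that different clusters were the larger ones in control and after TIA. Cluster 10, which was high in the angiotensinogen gene Agt, had only 22 cells at 24 h, under the minimum of 50, so its ratios are given apart. On the log2 scale against control, Gjb6 stood there at 1.10, Glul at 0.90 and Atp1b2 at 0.76 at 24 h, and Glul at 0.59 at 3 d. Gfap, the intermediate filament gene of reactive astrocytes, stood at 25.7 CPM in control, 124 CPM at 24 h and 38.7 CPM at 3 d.

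Markers of other cell types were found in the astrocyte sums, and several of them differed between libraries. All 9 microglia markers were found in each library and summed to 779 CPM in control, 329 CPM at 24 h and 561 CPM at 3 d. The 4 erythrocyte markers summed to 697 CPM, 20.1 CPM and 633 CPM in the same order, and the choroid plexus markers to 170 CPM in control, mainly from Ttr, and to 10.2 CPM in each TIA library. Oligodendrocyte markers summed to 90.1, 35.9 and 72.3 CPM and pericyte markers to 130.0, 133 and 152 CPM. Of the pericyte markers, Pdgfrb alone stood at 102, 99.3 and 113 CPM, while Higd1b was not found in control or at 24 h. Whether this Pdgfrb came from pericytes or from the astrocytes themselves was not tested. The other 14 marker lists stayed under 42.6 CPM or at it in every library, and the neuronal markers Gad1 and Dcx were at 0 UMIs at 24 h. The 24 h astrocytes thus carried the least RNA of microglia and erythrocytes, and the part of this difference in the ratios was not tested.

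Together the 9 genes took up 1.82% of all astrocyte UMIs in control, 1.89% at 24 h and 1.88% at 3 d. Their summed share was thus nearly the same in the 3 libraries. Slc1a2 and Slc1a3 made up most of it, with 8808 and 3746 of 18212.5 CPM in control, so it says little on the other genes. Single genes differed from this picture in both directions, with Gjb6 higher and Aqp4 lower after TIA. A difference of at least 1.5-fold was used as the limit for calling a gene. At 24 h, 1 of the 9 genes was past this limit upwards and 0 downwards, against 8.73% and 12.3% of all 11797 genes that reached 100 UMIs over the 3 astrocyte sums. At 3 d, 1 of 9 was past it upwards and 0 downwards, against 2.83% and 1.76% of all genes. Between 24 h and 3 d, 0 of 9 passed the limit in either direction, against 11.8% of all genes that were higher at 3 d and 5.55% that were lower. The 9 genes are abundant, and of the 1075 genes with at least as many UMIs as the least abundant of them, the share past the limit at 24 h was 4.37% upwards and 5.77% downwards, and at 3 d 1.67% and 0.465%. The median log2 ratio of the 9 genes was 0.026 at 24 h and -0.039 at 3 d, and that of all genes was 0.014 and 0.040.

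**Figure D1:**
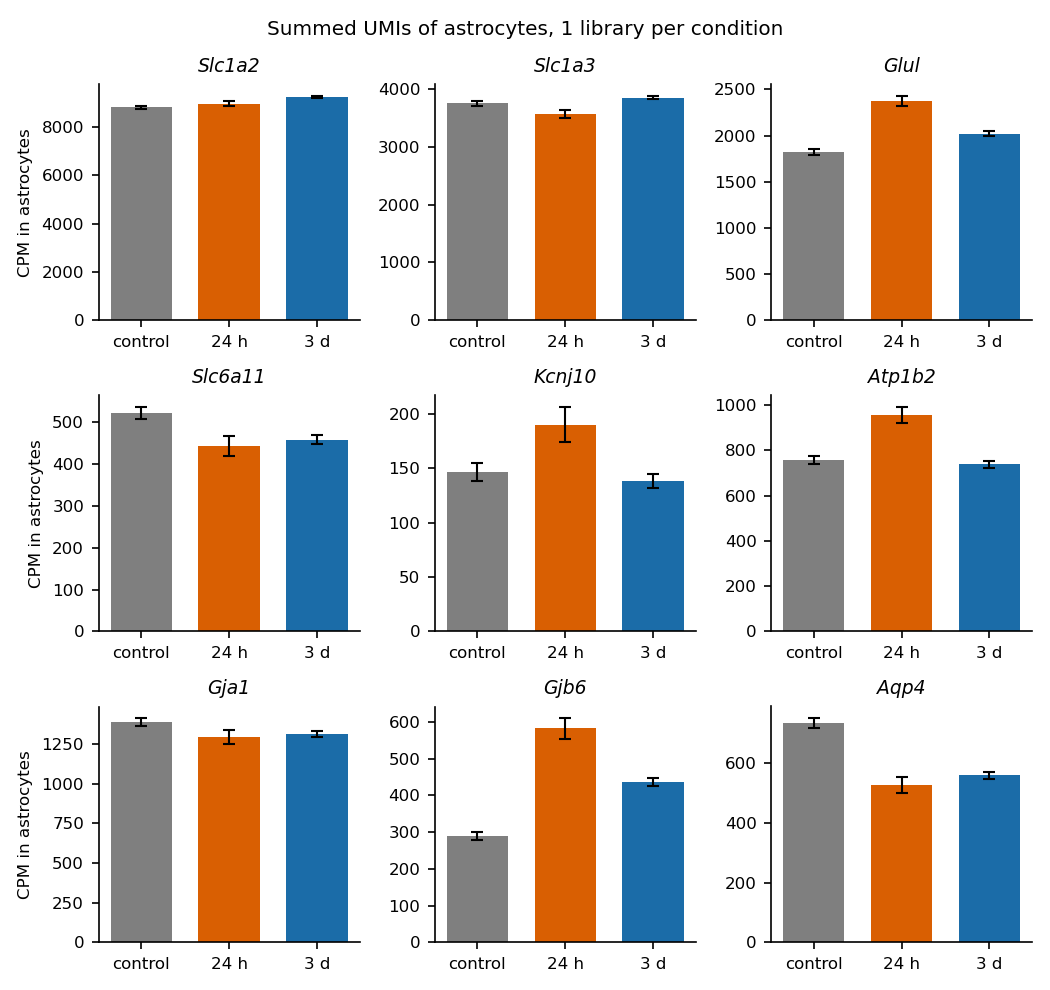
Level of each gene in CPM of the summed astrocyte UMIs (vertical axes, each starting at 0) in the control, 24 h and 3 d libraries; bars are the 1 library of each condition and error bars are exact Poisson 95% intervals, which cover counting error only. Gjb6 stood at 288, 582 and 436 CPM and Aqp4 at 733, 524 and 558 CPM, while Slc1a2 ranged only from 8808 to 9243 CPM.

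The glutamate transporter genes differed little between libraries. Slc1a2, the main glutamate transporter gene of forebrain astrocytes (ENSMUSG00000005089, chr2:102658659-102790784), was counted at 8808 CPM in control (exact Poisson interval 8747 to 8870), 8968 CPM at 24 h (8858 to 9079) and 9243 CPM at 3 d (9193 to 9293). Its log2 ratio to control was 0.03 at 24 h (0.01 to 0.05) and 0.07 at 3 d (0.06 to 0.08). The gene is abundant, so its counting intervals are narrow, and within clusters 2 and 4 the 24 h ratio was -0.02 and -0.03, opposite in sign to that over all astrocytes. At 3 d it was 0.11 in cluster 2 and -0.015 (-0.033 to 0.003) in cluster 4, again of different sign. Slc1a3, the second glial glutamate transporter gene (ENSMUSG00000005360, chr15:8634124-8710764), stood at 3746 CPM in control, 3557 CPM at 24 h and 3845 CPM at 3 d. The 24 h library was the lowest and the 3 d library the highest, with log2 ratios of -0.07 (-0.11 to -0.04) and 0.04 (0.02 to 0.06).

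Glul encodes glutamine synthetase, which makes glutamine from the glutamate taken up (ENSMUSG00000026473, chr1:153899944-153909723). It was counted at 1822 CPM in control (1794 to 1850), 2374 CPM at 24 h (2318 to 2431) and 2023 CPM at 3 d (1999 to 2046). Both TIA libraries were above control, and the 24 h library was the highest. The log2 ratio was 0.38 at 24 h (0.34 to 0.42) and 0.15 at 3 d (0.12 to 0.18), and it was positive at both times in clusters 2 and 4, with 0.38 and 0.33 at 24 h.

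Slc6a11 encodes the GABA transporter found mainly on astrocytes (ENSMUSG00000030307, chr6:114131241-114249952). Its level was 522 CPM in control (507 to 537), 442 CPM at 24 h (418 to 468) and 459 CPM at 3 d (448 to 470). Both TIA libraries were below control and their own intervals overlapped. The log2 ratio was -0.24 at 24 h (-0.33 to -0.15) and -0.19 at 3 d (-0.24 to -0.13), inside the limit of 1.5-fold. In cluster 2 it was -0.17 and -0.07 (-0.16 to 0.01), so the 3 d value was not detectable there, and in cluster 4 -0.25 and -0.16. Over the few astrocytes with at most 1 UMI of other classes' markers, the 3 d ratio turned to 0.63 (0.06 to 1.24), past the limit upwards. Cluster 10, with 11.5% of astrocytes in control, 9.28% at 24 h and 10.1% at 3 d, carried the most Slc6a11, with 1476 CPM in control, 1300 CPM at 24 h and 1148 CPM at 3 d, against 420 and 454 CPM in clusters 2 and 4 of the control library. Slc1a2 and Glul were lower there than in clusters 2 and 4, with 5862 and 962 CPM in control. The 9 genes were left out of the features used for clustering, but cells were clustered on genes that may vary with them, so these levels describe the clusters and were not tested.

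Of the genes for potassium, Kcnj10 encodes the inwardly rectifying potassium channel of astrocytes (ENSMUSG00000044708, chr1:172341210-172374085). It was the least abundant of the 9 genes in UMIs, at 146 CPM in control (138 to 154), 190 CPM at 24 h (174 to 206) and 138 CPM at 3 d (132 to 144). The 24 h library was above the other 2, with a log2 ratio of 0.38 (0.23 to 0.52). At 3 d the ratio was -0.08 (-0.18 to 0.02), a difference not detectable at this depth. By cluster, the 3 d ratio was 0.11 in cluster 2, -0.16 in cluster 4 and -0.53 (-0.83 to -0.22) in cluster 10. Atp1b2, which encodes a beta subunit of the sodium-potassium pump (ENSMUSG00000041329, chr11:69599736-69605942), had the same course. It stood at 757 CPM in control, 955 CPM at 24 h and 737 CPM at 3 d, with log2 ratios of 0.34 (0.27 to 0.40) and -0.04 (-0.08 to 0.01). Directly between the TIA libraries, Kcnj10 had a log2 ratio of 3 d to 24 h of -0.46 (-0.60 to -0.32) and Atp1b2 of -0.37 (-0.44 to -0.31).

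The connexin genes of gap junctions differed from each other. Gja1, the main connexin gene of astrocytes (ENSMUSG00000050953, chr10:56377330-56402513), stood at 1390 CPM in control (1366 to 1415), 1294 CPM at 24 h (1252 to 1337) and 1315 CPM at 3 d (1297 to 1334). The control library was the highest, and the log2 ratios of -0.10 (-0.16 to -0.05) and -0.08 (-0.11 to -0.05) were small. Gjb6, a second astrocytic connexin gene (ENSMUSG00000040055, chr14:57123303-57133611), stood at 288 CPM in control (277 to 300), 582 CPM at 24 h (555 to 611) and 436 CPM at 3 d (425 to 447). The intervals of the 3 libraries did not overlap, with 24 h the highest and 3 d between. The level at 24 h was 2.02-fold that of control (log2 ratio 1.01, 0.92 to 1.10) and at 3 d 1.51-fold (0.60, 0.53 to 0.66), which put Gjb6 at the percentile 97.8 and 97.3 of all genes. At 24 h the log2 ratio was 1.07 in cluster 2 and 1.03 in cluster 4, and at 3 d 0.55 and 0.72, so the 3 d value in cluster 2 was inside the limit. The 3 d value over all astrocytes lies just past the limit and was inside it under 5 of 12 alternative settings. The 5 astrocytes with the most Gjb6 held 2.38% of its UMIs in control, 7.32% at 24 h and 1.48% at 3 d, so no small group of cells held most of them. Markers of other classes were low in only 14, 16 and 40 astrocytes of the 3 libraries (at most 1 UMI), and over these the 24 h log2 ratio of Gjb6 was -0.11 (-0.87 to 0.66), opposite in sign and from 27 UMIs in control and 37 at 24 h.

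Aqp4 encodes the water channel of astrocytic endfeet (ENSMUSG00000024411, chr18:15389496-15410982). It was counted at 733 CPM in control (715 to 751), 524 CPM at 24 h (498 to 552) and 558 CPM at 3 d (546 to 571). Both TIA libraries were below control, and their intervals overlapped with each other. The log2 ratio was -0.48 at 24 h (-0.56 to -0.40) and -0.39 at 3 d (-0.44 to -0.35), inside the limit of 1.5-fold over all astrocytes and the lowest of the 9 genes at both times. In cluster 2 the ratios were -0.35 at each time and in cluster 4 -0.51 and -0.42. In cluster 10, with its 22 cells at 24 h, they were -0.84 (-1.21 to -0.49), past the limit, and -0.26. Among all genes tested, Aqp4 lay at the percentile 15.5 at 24 h and 4.67 at 3 d.

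**Figure D2:**
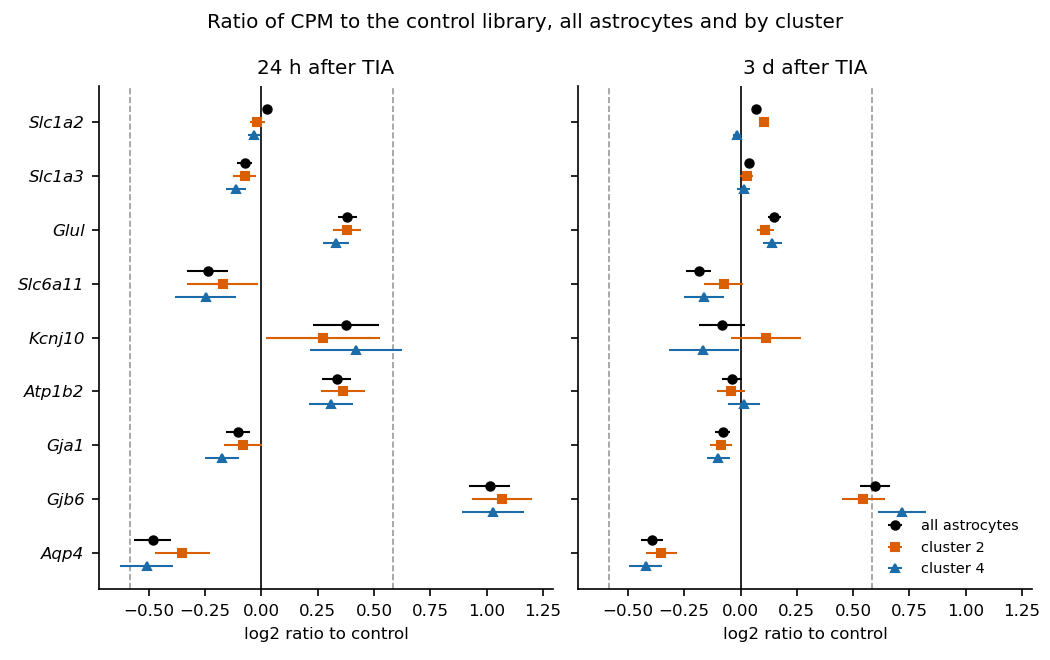
Log2 ratio of CPM to the control library (horizontal axes) for each gene at 24 h and at 3 d after TIA, over all astrocytes and within clusters 2 and 4; bars are exact conditional binomial 95% intervals for counting error, and dashed lines mark 1.5-fold. Gjb6 was past the upper line at 24 h in all astrocytes (1.01) and in both clusters (1.07 and 1.03), and Aqp4 was below 0 throughout (-0.35 to -0.51).

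The share of astrocytes with a UMI was compared after thinning each cell to 2000 UMIs, which left out 9 astrocytes in control, 12 at 24 h and 16 at 3 d. Gjb6 was then found in 43.7% of astrocytes in control (exact binomial interval 40.4% to 47.1%), 59.6% at 24 h (52.8% to 66.0%) and 55.6% at 3 d (53.0% to 58.2%). In unthinned cells the shares were 84.3%, 89.0% and 91.8%. Neurons, which should lack this gene, gave 2.05% in control, 1.0% at 24 h and 2.20% at 3 d at the same thinned depth, and their unthinned medians were 7146.5, 8700.5 and 8305 UMIs per cell. Aqp4 was found in 69.3% of astrocytes in control (66.1% to 72.3%), 56.4% at 24 h (49.7% to 63.0%) and 60.2% at 3 d (57.6% to 62.7%), against 2.05%, 1.0% and 2.75% of neurons. Both genes thus moved the same way by shares of cells as by CPM. An astrocyte of 2000 UMIs held a median of 34 UMIs of the 9 genes in control, 35 at 24 h and 36 at 3 d, and a median of 7 of the 9 genes was detected in each library.

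Within a library, correlations of the genes from cell to cell were weak at the thinned depth. Over the thinned astrocytes of 1 library, which share their depth and source, Spearman's rho of the 36 pairs lay between -0.13 and 0.32 in all 3 libraries. The highest value was that of Glul and Gja1 at 24 h, over 225 cells, against 0.16 in control and 0.08 at 3 d. Counts per cell are sparse at this depth, and nothing is read from such weak values.

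The other genes of these tasks were taken from a list of 40 genes in 5 roles, of which 34 had at least 100 UMIs. At 24 h, 4 of the 34 were past 1.5-fold upwards and 1 downwards, and at 3 d 1 upwards and 0 downwards, with medians of -0.0038 and 0.010. As shares these are 11.8% and 2.94% at 24 h, beside 8.73% and 12.3% of all genes, and 2.94% and 0% at 3 d, beside 2.83% and 1.76%. Lrrc8a, which encodes a subunit of the volume-regulated anion channel, was the highest at both times, with 36.4 CPM in control, 107 CPM at 24 h and 56.8 CPM at 3 d and log2 ratios of 1.56 and 0.64. Over the few astrocytes with at most 1 UMI of other classes' markers its 24 h ratio was 0.17, inside the limit. Slc25a22, a mitochondrial glutamate carrier gene, followed at 24 h with 4.38, 10.2 and 4.80 CPM from 39, 29 and 68 UMIs and a log2 ratio of 1.22 at 24 h. Gjb2, another astrocytic connexin gene, stood at 10.5, 16.5 and 13.4 CPM, with ratios of 0.66 and 0.36. The fourth gene past the limit, the glycine transporter gene Slc6a9, was named after its values were seen and stood at 37.0, 56.3 and 39.5 CPM, a log2 ratio of 0.61 at 24 h.

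At the lower end of the list, Slc38a1, a glutamine transporter gene, stood at 17.5 CPM in control, 10.9 CPM at 24 h and 11.8 CPM at 3 d, with log2 ratios of -0.68 and -0.57, from only 31 UMIs at 24 h. Grm3, a metabotropic glutamate receptor gene of astrocytes, was abundant and lower at both times, with 1559, 1107 and 1235 CPM and ratios of -0.49 and -0.34. The background potassium channel gene Kcnk2 had a ratio of -0.53 at 24 h and stood at 159, 110.2 and 153 CPM. At 3 d, the pump subunit gene Atp1b1 had a ratio of -0.23 (-0.32 to -0.14), opposite to that at 24 h (0.35, 0.23 to 0.47), and the potassium channel gene Kcnj16 was among the 3 highest with 0.25.

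By role, the 11 measured genes of glutamate and glutamine had log2 ratios with a median of -0.058 (24 h) or -0.044 (3 d), and 1 of them (9.09%) was past the limit in each direction at 24 h, beside 8.73% and 12.3% of all genes. The 9 genes of potassium and ion transport had medians of 0.09 and -0.036, with 0 past the limit at either time. The 9 measured genes of water and endfeet had medians of -0.055 and 0.025. Lrrc8a was the one past the limit, upwards, or 11.1% at each time, beside 8.73% of all genes at 24 h and 2.83% at 3 d. The 3 genes of GABA and glycine had medians of 0.52 and 0.09, with 1 of 3 (33.3%) past the limit upwards at 24 h. Of the 6 gap junction genes 2 were measured, with medians of 0.28 and 0.15 and 1 of 2 past the limit upwards at 24 h.

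Levels in other cell classes were set beside those of the astrocyte markers, which gauge the astrocyte RNA found in these cells. Free RNA and doublets cannot be told apart by this gauge. The classes with at least 50 cells in each library were microglia, neurons, endothelial cells, pericytes and oligodendrocytes, each named from markers only. As a gauge, the summed astrocyte markers stood in microglia at 0.949% of their astrocyte level in control, 0.548% at 24 h and 1.21% at 3 d. They stood at 5.73%, 2.79% and 5.52% in neurons, at 2.33%, 1.15% and 2.35% in endothelial cells, and at 1.75%, 0.846% and 3.15% in oligodendrocytes. When doublets were left out and cells clustered anew, the values in neurons became 1.5%, 0.750% and 2.22%, much lower than before, and those in oligodendrocytes 0.902%, 0.856% and 1.73%. In endothelial cells they became 1.94%, 2.08% and 2.67%, so that 24 h was the lowest library with doublets kept but not without them. The gauge thus depends on how doublets are handled, and the cause was not tested. In pericytes the sum reached 19.9%, 12.5% and 19.9%, of which Mfge8 alone stood at 94.9%, 99.3% and 82.7%, and the median marker gave 5.33%, 0.462% and 7.78%.

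Of the 45 pairs of a gene and another class, 6 were above every one of the 12 astrocyte markers in each of the 3 libraries. These were Glul and Kcnj10 in oligodendrocytes, Glul in endothelial cells, and Glul, Slc1a3 and Kcnj10 in microglia. The other 39 pairs did not exceed every marker in all libraries, and Slc1a2, Gja1, Gjb6, Slc6a11, Aqp4 and Atp1b2 had no pair above in all 3. In pericytes the marker Mfge8 stood at 94.9%, 99.3% and 82.7%, so this criterion could hardly be met there and says little on that class. Atp1b2 in pericytes stood at 84.5%, 68.9% and 65.1%, above the median marker in each library. The median of the 9 genes was 1.09%, 0.849% and 1.18% in microglia, 5.06%, 2.35% and 5.69% in neurons, 2.05%, 0.510% and 3.70% in oligodendrocytes, 1.78%, 0.402% and 1.43% in endothelial cells and 4.79%, 0.519% and 10.3% in pericytes. It lay below the summed markers in endothelial cells and pericytes in each library. The median marker gave 1.68%, 0.323% and 1.62% in endothelial cells, below the median of the 9 genes in control and at 24 h only. In pericytes it gave 5.33%, 0.462% and 7.78%, below the median of the 9 genes at 24 h and 3 d only.

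Kcnj10 was higher in oligodendrocytes than in astrocytes. It stood there at 242 CPM in control, 342 CPM at 24 h and 212 CPM at 3 d, which is 166% (exact interval 151% to 181%), 180% (158% to 205%) and 154% (141% to 167%) of the astrocyte level of the same library. The log2 ratio to control in oligodendrocytes was 0.50 at 24 h (0.32 to 0.67) and -0.19 at 3 d (-0.34 to -0.04), so the 24 h library was the highest in both classes. Kcnj10 in microglia rested on 63, 16 and 64 UMIs and reached 4.99%, 2.85% and 4.13% of the astrocyte level.

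Glul was the gene most widely found. In oligodendrocytes it stood at 1678 CPM in control, 1787 CPM at 24 h and 1116 CPM at 3 d, or 92.1%, 75.3% and 55.2% of the astrocyte level. The 3 d library was the lowest in this class, with a log2 ratio of -0.59 (-0.65 to -0.53), while astrocytes had 0.15. Microglia held 647, 801 and 823 CPM, or 35.5%, 33.7% and 40.7% of the astrocyte level, with log2 ratios of 0.31 at 24 h (0.24 to 0.38) and 0.35 at 3 d (0.30 to 0.40). Endothelial cells held 702, 599 and 616 CPM, or 38.5%, 25.2% and 30.5%, and were below control at both times, with log2 ratios of -0.23 (-0.37 to -0.09) and -0.19 (-0.30 to -0.07).

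Slc1a3 in microglia stood at 271 CPM in control, 319 CPM at 24 h and 335 CPM at 3 d, or 7.24%, 8.96% and 8.70% of the astrocyte level. Its log2 ratio in microglia was 0.23 at 24 h (0.12 to 0.34) and 0.30 at 3 d (0.23 to 0.38), and both TIA libraries were above control. Microglia formed clusters 0 and 7, and cluster 7 held 11.7% of them in control, 23.4% at 24 h and 23.4% at 3 d. At 24 h the ratio of Slc1a3 was 0.42 (0.30 to 0.54) in cluster 0 and -0.27 (-0.56 to 0.02) in cluster 7, and that of Glul 0.50 (0.43 to 0.58) and -0.20 (-0.39 to -0.01), so the 24 h values of the class do not hold in both clusters. At 3 d both genes were above control in each cluster, with 0.31 and 0.39 for Slc1a3 and 0.35 and 0.51 for Glul. Slc1a2 in the same cells gave 0.637%, 0.849% and 0.961%, so these glutamate transporter genes stood in a different ratio in microglia and in astrocytes.

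Atp1b2 was abundant in pericytes, with 640 CPM in control, 658 CPM at 24 h and 480 CPM at 3 d, or 84.5%, 68.9% and 65.1% of the astrocyte level. The 3 d library was the lowest, with a log2 ratio of -0.42 (-0.59 to -0.24), and that at 24 h was 0.04 (-0.13 to 0.22). Of the astrocyte markers, Mfge8 was above Atp1b2 there in each library. Over the few pericytes with at most 1 UMI of the astrocyte markers, Atp1b2 reached 49.0%, 42.5% and 36.2%, from 9, 37 and 30 UMIs. Gja1 was highest outside astrocytes in pericytes at 3 d, with 10.3%, but in endothelial cells it stood at 5.37%, 7.78% and 6.99%, above the summed markers in each library. Its level in endothelial cells was 74.6 CPM in control, 101 CPM at 24 h and 92.0 CPM at 3 d.

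Aqp4, Gjb6 and Slc6a11 stayed below 10% of the astrocyte level in every other class and library. Aqp4 in microglia at 24 h stood at 1.48% from 23 UMIs, above the highest astrocyte marker there (1.42%), but in control and at 3 d it was not above, and without doublets it was 0.713% at 24 h. At 24 h, Aqp4 had 0 UMIs in pericytes, oligodendrocytes and endothelial cells, which allows up to 0.564%, 0.476% and 0.446% of the astrocyte level at 3 UMIs. Gjb6 had 0 UMIs in pericytes at 24 h, which allows up to 0.508%, and 10 UMIs or 4.79% in control and 62 UMIs or 9.55% at 3 d. Slc6a11 in oligodendrocytes stood at 0.989% in control, 0.941% at 24 h and 7.26% at 3 d, where the summed markers gave 3.15%, and at 1.38% at 3 d without doublets. In neurons Aqp4 stood at 4.89%, 1.87% and 3.92%, Gjb6 at 5.50%, 2.35% and 4.48% and Slc6a11 at 5.06%, 2.43% and 4.13%, with the lowest value at 24 h for each, as for the markers. Without doublets these fell to 0.518% in control and 1.28% at 3 d for Aqp4, with 0 UMIs at 24 h, to 0.693%, 0.358% and 1.10% for Gjb6 and to 1.06%, 0.70% and 1.65% for Slc6a11.

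**Figure D3:**
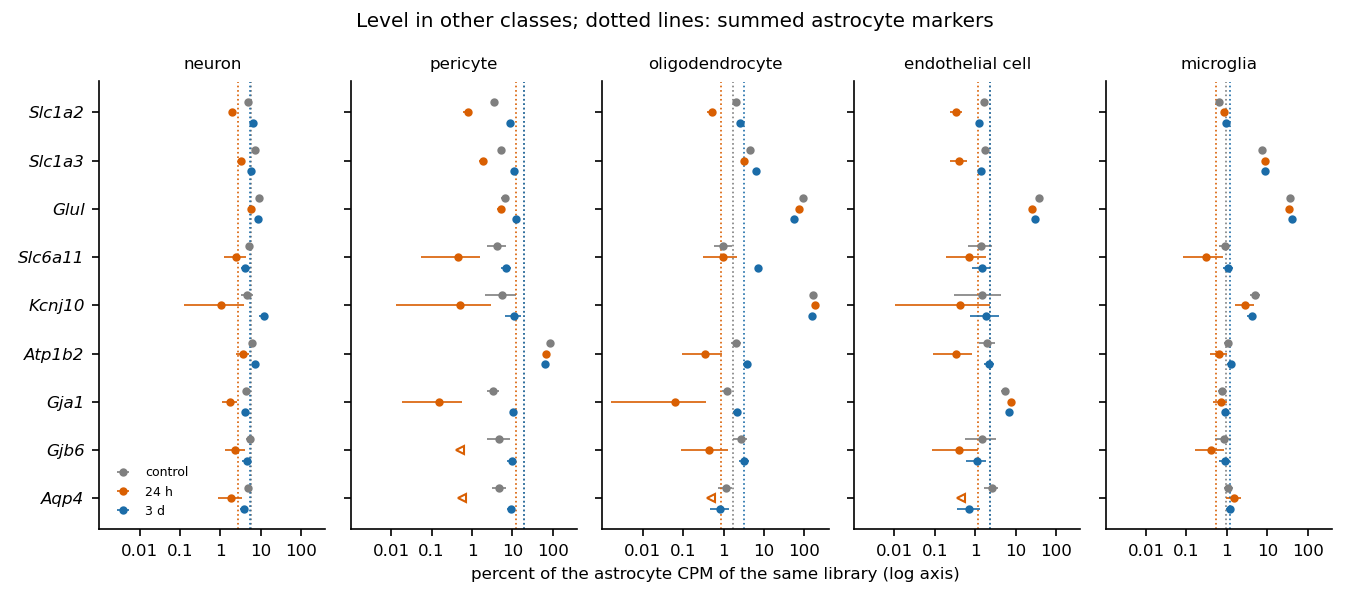
Level of each gene in 5 other cell classes as a percent of its astrocyte CPM in the same library (horizontal axes, log scale), with exact conditional binomial 95% intervals for counting error; open triangles are limits of 3 UMIs where 0 were counted, and dotted lines show the 12 astrocyte markers summed. Kcnj10 in oligodendrocytes lies at 154% to 180%, Glul in oligodendrocytes at 55.2% to 92.1% and Atp1b2 in pericytes at 65.1% to 84.5%, while Aqp4 lies at 4.89% or less in every class except pericytes at 3 d with 9.50%.

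The genes with the most similar pattern were sought over the 18 pairs of 6 classes and 3 libraries, which share libraries and differ mostly between classes, by Pearson's r of log2(CPM + 1). Slc1a2 was closest to Gpc5, Gabrb1 and Dbx2 (r = 0.99 for each), and Gjb6 to Acsbg1 (r = 0.99), Wdr17 and Gm973 (r = 0.98 for each). Slc6a11 was closest to Gpr37l1, Arhgef26 and Fgfr3 (r = 0.98 for each), Aqp4 to Gldc (r = 0.97), Cldn10 and Bcan (r = 0.96 for each), and Atp1b2 to Slc7a2, Prrx1 and Gm32618 (r = 0.98 for each). Of these, Acsbg1, Gpr37l1, Fgfr3 and Cldn10 are among the astrocyte markers. Glul was closest to Acot13 (r = 0.97), Ahcyl2 (r = 0.94) and Kdsr (r = 0.92), Kcnj10 to Tmem229a (r = 0.98), 1190005I06Rik (r = 0.97) and Adora1 (r = 0.96), Slc1a3 to Xylt1, Tspan7 and Ramp1, and Gja1 to Prdm16, Ak4 and Lcat. Among the 9 genes themselves, Gjb6 and Slc6a11 were the most alike with r = 0.97, and Glul and Atp1b2 the least with r = -0.14.

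Promoter sequences of RefSeq on GRCm38.p6, 250 bases before to 50 bases after the gene start, matched 7 of the 9 genes, and Atp1b2 and Aqp4 had no entry. The entry of Slc1a2, at chr2:102706188-102706487, lies inside the gene and not at the start of the coordinates given above. They were searched on both strands for TTGGC, one arm of the NFI site, ACAATG, a core of SOX sites, and AGAACA, one arm of the glucocorticoid receptor site, and no match overlapped that of another motif. TTGGC was found in 3 of the 7 promoters, those of Slc1a2, Glul and Kcnj10, and in 46.7% of all 32851 promoters of the same length. AGAACA was found in 2 of the 7, those of Slc1a3 and Kcnj10, and in 19.0% of all, and ACAATG in 0 of the 7 and 12.6% of all. The promoters of Glul and Kcnj10 held 2 matches of TTGGC each, and those of Gjb6, Gja1 and Slc6a11 held no match to the 3 motifs. The share of all promoters with 2 matches was not counted. G and C made up 64.3% of the Glul and 63.7% of the Kcnj10 promoter, against a median of 52.7% over all promoters. Glul and Kcnj10 are shown as genes also found in oligodendrocytes, and Gjb6 as the gene with the largest difference at 24 h among the 9. A link between motifs and cell classes was not tested. The promoters of Glul, Kcnj10 and Gjb6 are printed in lower case with matches to a motif or its reverse complement in capitals, at chr1:153899679-153899978 (plus strand) for Glul, chr1:172340960-172341259 (plus strand) for Kcnj10 and chr14:57133562-57133861 (minus strand) for Gjb6. A match describes the letters only.
Glul: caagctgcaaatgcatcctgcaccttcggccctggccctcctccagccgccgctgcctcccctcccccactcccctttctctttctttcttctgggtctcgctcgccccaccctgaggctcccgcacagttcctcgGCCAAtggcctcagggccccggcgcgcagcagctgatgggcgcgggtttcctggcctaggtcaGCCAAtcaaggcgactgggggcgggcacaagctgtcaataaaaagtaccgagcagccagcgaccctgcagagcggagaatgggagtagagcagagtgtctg
Kcnj10: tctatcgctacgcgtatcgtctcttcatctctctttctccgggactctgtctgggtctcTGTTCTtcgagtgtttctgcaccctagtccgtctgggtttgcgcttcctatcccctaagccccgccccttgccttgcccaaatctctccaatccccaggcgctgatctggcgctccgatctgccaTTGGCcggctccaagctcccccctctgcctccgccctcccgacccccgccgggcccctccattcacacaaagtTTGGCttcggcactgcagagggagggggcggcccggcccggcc
Gjb6: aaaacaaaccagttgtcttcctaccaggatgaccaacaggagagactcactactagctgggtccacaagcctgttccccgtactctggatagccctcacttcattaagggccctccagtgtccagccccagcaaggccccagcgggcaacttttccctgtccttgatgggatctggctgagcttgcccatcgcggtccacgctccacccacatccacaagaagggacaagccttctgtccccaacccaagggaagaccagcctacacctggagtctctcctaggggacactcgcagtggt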

How the data were processed

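Sorted live brain cells of the control, 24 h and 3 d groups were sequenced with the 10x Genomics 3′ v3.1 kit. The authors aligned reads to mm10 (GENCODE vM23) and made the deposited filtered matrices, which hold whole UMI counts without normalization, with CellRanger, 7.1.0 per the file headers and the methods and 3.1.0 per the submitters' processing notes. They held 4804, 1619 and 5505 cells and 37987228, 12919691 and 48636436 UMIs for control, 24 h and 3 d. Cells needed at least 500 genes and at most 7% mitochondrial UMIs, and clusters were made with Seurat 5.3.0 under R 4.3.3 (2000 variable features without the 9 genes and the wider list, which took out 6 features, UMI number and mitochondrial share regressed out, 20 principal components, resolution 0.5). A cluster took the name of a type, out of 20 with marker lists, when 3 or more markers reached 10% of its cells and were 2-fold above other clusters, so classes are rebuilt and not the authors' own. Thresholds of this naming were set after clusters had been seen, and 1 shallow cluster stayed unnamed, with 7.42% of cells in control, 2.04% at 24 h and 3.10% at 3 d. Scrublet, run through scanpy 1.11.5, called 122, 6 and 140 doublets, left out in an alternative only.

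UMIs were summed per class and library and scaled to CPM. Intervals are exact Poisson for CPM, conditional binomial for ratios and Clopper-Pearson for shares. With 1 library per condition no test was made. A sum of 0 UMIs was set to 3 UMIs as a limit. UMIs of a 3′ assay are not scaled by gene length, so levels are compared within a gene. Genes on the other strand overlap Slc1a2 (Gm13872), Glul (Teddm2), Slc6a11 (Gm8132) and Aqp4 (AC133525.2), and genes on the same strand overlap Slc1a3 (Gm37310) and Glul (Mir8114). Of these only Gm13872 and Teddm2 are counted in the files. Coordinates are those of GENCODE release M21 on GRCm38. The text names all 9 genes, the 3 highest and 3 lowest of the wider list at each time, and the 3 genes most like each of the 9. The 9 genes, lists and alternatives were chosen with earlier results of these data known, and the weighting by control clusters and the scaling without Malat1 and mitochondrial UMIs were added after seeing the data, as were the values within microglia clusters.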

Additional observations from a re-analysis of the deposited data

Results flagged for a closer look

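Glul differed in direction between cell classes at 3 d. Its log2 ratio to the control library was 0.15 in astrocytes and -0.59 in oligodendrocytes, with counting intervals on opposite sides of 0. Endothelial cells were also below control (-0.19), and microglia (0.35) and pericytes (1.09) above it. Pericyte Glul stood below the summed astrocyte markers in each library, at 6.52%, 5.15% and 12.5% of the astrocyte level, but above the median marker. At 3 d Slc1a2 (1.41), Slc1a3 (1.10), Gja1 (1.52) and Gjb6 (1.59) were above control in pericytes too, and Atp1b2 was below it (-0.42). The part of astrocyte RNA in the pericyte value was not tested. The difference between classes was not tested, since each class rests on 1 library per condition.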

How the results depend on the processing

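The differences of the 9 genes were recomputed under 12 alternatives, 2 of them added with the data seen. Aqp4 stayed below control in all 12 at both times (log2 ratio -0.91 to -0.43 at 24 h and -0.43 to -0.20 at 3 d), and Glul stayed above it (0.20 to 0.43 and 0.11 to 0.20). Over the astrocytes with at most 1 UMI of other classes' markers, the interval of Aqp4 at 3 d (-0.74 to 0.36) held 0. Those of Glul at 24 h (-0.13 to 0.54) and 3 d (-0.15 to 0.46) did too, so these directions were not detectable there. Of 108 values at each time, 4 at 24 h and 6 at 3 d had the opposite sign to the value reported. Gjb6 was past 1.5-fold in 11 of 12 alternatives at 24 h and in 7 of 12 at 3 d.

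Many of the largest shifts of single genes came from the 14, 16 and 40 astrocytes of control, 24 h and 3 d with at most 1 UMI of other classes' markers. Their sums held only 75170, 111325 and 203733 UMIs. Gjb6 at 24 h then had a log2 ratio of -0.11, from 27 and 37 UMIs. The medians of the 9 genes became 0.061 and 0.13, and 1 gene (Aqp4) was past the limit downwards at 24 h. The genes past it upwards were Kcnj10 at 24 h (0.66, -0.53 to 1.97) and Slc6a11 at 3 d (0.63) in place of Gjb6. The interval of Kcnj10 held 0. Of all genes, 20.4% were past the limit upwards and 13.5% downwards at 24 h, and 14.1% and 5.95% at 3 d. Over genes that still reached 100 UMIs, the wider list had 1 gene higher and 0 lower at 24 h, 0 higher at 3 d and a 3 d median of 0.21. Lrrc8a had a log2 ratio of 0.17 at 24 h. The cause was not tested.

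The median of the 9 genes at 24 h, reported as 0.026, was 0.0034 without doublets, 0.0032 without regression, -0.0028 with the mean of each cell's CPM, 0.10 with astrocytes called cell by cell and -0.028 with clusters weighted as in control, and the cause was not tested. The number of the 9 genes higher at 3 d was 0 without doublets, with median-ratio scaling, with the mean of each cell's CPM, with cell by cell calls and at a limit of 2-fold. With the mean of each cell's CPM, 1 of the 9 (Aqp4) was lower at 24 h. At the lower fold limit (log2 of 0.32), 4 were higher and 1 lower at 24 h, and 1 was lower at 3 d, beside 21.8% and 22.8% of all genes at 24 h and 11.1% and 6.87% at 3 d. The shares of all genes past 2-fold were 2.35% and 5.20% at 24 h and 0.627% and 0.22% at 3 d.

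For the wider list, the number lower at 3 d, reported as 0, was 1 with the cell filter that needs both limits crossed, without doublets, without regression, with median-ratio scaling, with the mean of each cell's CPM, with cell by cell calls and with a minimum of 30 UMIs. The number lower at 24 h, reported as 1, was 2 without doublets, with the mean of each cell's CPM and with 30 UMIs, and 0 with 500 UMIs or at 2-fold. The number higher at 24 h, reported as 4, was 2 with 500 UMIs or at 2-fold, and the number higher at 3 d was 0 at 2-fold. At the lower fold limit, 7 genes were past it upwards at 24 h and 6 downwards, with 2 in each direction at 3 d, beside the same shares of all genes at that limit. Of all genes, 11.3% were higher and 16.2% lower at 24 h with 30 UMIs (5.57% and 3.78% at 3 d), and 6.0% and 6.83% with 500 UMIs (1.51% and 0.651% at 3 d). In the other alternatives at 1.5-fold and 100 UMIs, leaving aside the few astrocytes above, these shares were 7.65% to 10.9% and 10.6% to 13.7% at 24 h and 2.36% to 3.37% and 1.07% to 2.55% at 3 d. The 3 d median was -0.030 with median-ratio scaling.

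The share of astrocytes was 23.7%, 21.8% and 31.8% in control, at 24 h and at 3 d with the filter that needs both limits crossed, and 24.6% in control and 32.1% at 3 d with cell by cell calls. Depth limits the 24 h library most, as its astrocyte sum is the smallest, and no alternative stands for the spread between mice. In microglia, Slc1a3 and Glul at 24 h were above control in cluster 0 (0.42 and 0.50). In cluster 7 Glul was below it (-0.20), while the interval of Slc1a3 (-0.27, -0.56 to 0.02) held 0. No paired analysis was possible because each condition has 1 library.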
